A study of Mus musculus with 36 samples.

Results

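Bnc2, Hesx1, Lhx1 and Mgst2 are 4 genes of the fetal mouse gonad, 4 of the 19938 genes that had a probe set annotated to a single symbol on the arrays. They were chosen because their levels were high in XY germ cells at 12.5 or 13.5 days post coitum (dpc), so those levels describe the choice and support nothing. Each gene was represented by 1 probe set, and no other probe set carried its symbol. The XY germ levels at 12.5 and 13.5 dpc, and every difference that uses them, are therefore given without a test. The rule of choice did not name the other germ cell arrays or any supporting cell array, and differences among these were tested. Earlier results of these data were known when the genes were chosen, so these tests may not be wholly independent of the choice.

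Germ cells reach the gonad before it has become a testis or an ovary, and their later course depends on the somatic cells around them. In a testis they stop dividing and take on a prospermatogonial programme, while in an ovary they enter meiosis, and NODAL signalling through the co-receptor CRIPTO is active for a short time in the XY cells. Hesx1 encodes a paired-like homeodomain repressor of forebrain and pituitary development, and Lhx1 a LIM homeodomain factor of head, kidney and genital duct development. Bnc2 encodes a zinc finger protein of the basonuclin family that has been studied in the mitotic arrest of prospermatogonia, and Mgst2 a membrane-bound glutathione transferase that can make leukotriene C4.

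The series holds 36 Affymetrix arrays, 3 for each of 12 groups formed by cell type (germ or supporting), karyotype (XX or XY) and stage (11.5, 12.5 or 13.5 dpc). The gonads of embryos of 1 sex were combined, digested with trypsin, stained with DAPI and sorted by flow cytometry. Whether replicate arrays stand for separate litters is not given in the labels, so the p-values measure the spread between these arrays, which may be technical. All germ cells, of both karyotypes and at each stage, carried a reporter named Oct4 and were progeny of C57BL/6NJ on a mixed background. XX supporting cells at every stage, and XY supporting cells at 11.5 dpc, carried Tg(Sry-EGFP)92Ei in progeny of CD-1. XY supporting cells at 12.5 and 13.5 dpc carried Tg(Sox9-cre/ERT2)1Msan/J in progeny of C57BL/6. Karyotype and mouse line therefore cannot be told apart in the supporting cell comparisons at 12.5 and 13.5 dpc, and which cells were collected depends on the transgene of each line.

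The labels were checked against marker genes. The median of 10 germ cell markers lay between 9.71 and 10.83 (log2) in the germ cell arrays and between 5.58 and 6.63 in the supporting cell arrays. The array labelled germ XX 12.5 dpc replicate 3 went against its label, with a germ marker median of 5.86, Ddx4 at 5.04 and Pou5f1 at 5.07. Its stromal marker median was 9.74 and its supporting marker median 9.36. In the groups of the other arrays up to 2 of 6 endothelial, 1 of 6 macrophage and 1 of 3 measured erythroid markers lay above the array median. The same held for up to 6 of 8 stromal markers, in XY supporting cells at 13.5 dpc, and up to 5 of 7 mesonephric and epithelial markers, in germ cells. The array that went against its label was left out, so germ XX at 12.5 dpc has 2 arrays and 35 arrays were compared. Array medians ran from 6.54 to 7.01, and arrays of 1 group correlated at 0.967 to 0.995 over all genes.

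The RefSeq promoters of the 4 genes are shown because the genes were chosen together for high XY germ levels, so that their starts can be compared. Each sequence runs 5′ to 3′ on the strand of its gene, from 250 bases before to 50 bases after the start (GRCm38.p6), with motif matches in capitals.
Hesx1: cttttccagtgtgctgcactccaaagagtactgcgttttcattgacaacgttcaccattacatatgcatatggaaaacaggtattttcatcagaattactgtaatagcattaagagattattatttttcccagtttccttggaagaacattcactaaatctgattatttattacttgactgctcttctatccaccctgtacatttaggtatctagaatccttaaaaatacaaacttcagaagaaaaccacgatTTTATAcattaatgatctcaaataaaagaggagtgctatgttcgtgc
Lhx1: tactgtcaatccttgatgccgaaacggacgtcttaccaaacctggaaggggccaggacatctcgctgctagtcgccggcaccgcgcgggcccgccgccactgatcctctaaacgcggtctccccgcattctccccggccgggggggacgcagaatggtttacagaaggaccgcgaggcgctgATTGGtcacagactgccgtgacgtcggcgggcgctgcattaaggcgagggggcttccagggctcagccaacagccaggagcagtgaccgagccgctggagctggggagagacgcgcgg
Bnc2: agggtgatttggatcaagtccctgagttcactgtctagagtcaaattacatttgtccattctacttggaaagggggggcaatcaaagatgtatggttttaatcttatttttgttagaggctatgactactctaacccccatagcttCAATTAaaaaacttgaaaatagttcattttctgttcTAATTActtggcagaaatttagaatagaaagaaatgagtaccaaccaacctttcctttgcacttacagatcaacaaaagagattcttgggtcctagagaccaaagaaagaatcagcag
Mgst2: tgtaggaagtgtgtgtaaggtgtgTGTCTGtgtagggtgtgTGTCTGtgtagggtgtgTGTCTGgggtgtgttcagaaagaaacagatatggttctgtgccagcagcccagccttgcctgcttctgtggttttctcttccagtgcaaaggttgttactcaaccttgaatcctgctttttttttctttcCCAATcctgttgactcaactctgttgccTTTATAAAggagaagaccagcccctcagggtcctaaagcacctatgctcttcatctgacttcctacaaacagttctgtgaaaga

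The Hesx1 promoter (chr14:27000112-27000411, plus strand) was 33.7% GC with 4 CpG dinucleotides, and the Bnc2 promoter (chr4:84610148-84610447, minus strand) 36.3% GC with 0. The Mgst2 promoter (chr3:51660929-51661228, plus strand) was 46.3% GC with 0 CpG dinucleotides. In contrast, the Lhx1 promoter (chr11:84525485-84525784, minus strand) was 65.7% GC with 31. Over 32851 promoters of the same length, the quartiles were 45.7%, 52.7% and 61.7% GC, and 3, 7 and 20 CpG dinucleotides. Lhx1 thus lay above the upper quartile for both measures, whereas Hesx1 and Bnc2 lay below the lower quartile for GC content.

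Motifs were searched on both strands as fixed letters. TATAAA, present in 13.6% of all promoters, matched in Mgst2 in 2 overlapping places, 34 and 32 bases before the start, and in Hesx1 once, after the start. CCAAT (37.4% of promoters) matched once in Mgst2, 62 bases before the start, and once in Lhx1, 68 bases before it. CAGACA, a SMAD box (21.0%), matched 3 times in Mgst2, on the opposite strand at 226, 209 and 192 bases before the start, inside a repeated stretch. TAATTA (5.29%) and TAATTG (8.0%), letters that homeodomain proteins can bind, each matched once in Bnc2. GGGCGG (35.7%) and the octamer ATTTGCAT (1.74%) matched in none of the 4 windows. No motif was shared by all 4 promoters.

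Hesx1 had the most restricted pattern of the 4 genes. In XY germ cells it read 6.10, 5.43 and 5.53 (log2) at 11.5 dpc, 7.35, 8.07 and 8.12 at 12.5 dpc, and 8.77, 9.70 and 9.51 at 13.5 dpc. The group means were 5.69 ± 0.36, 7.85 ± 0.43 and 9.33 ± 0.49 (SD, n = 3), each later group lying wholly above the one before. In XX germ cells it read 5.77, 5.49 and 5.37, then 5.66 and 6.17, then 6.05, 5.81 and 5.58, with no separation between stages. Group means in supporting cells lay between 5.27 and 5.48. The difference between XY and XX germ cells was 1.93 at 12.5 dpc (3.82-fold), rank 10 of 19938 genes from the most XY-high, and 3.51 at 13.5 dpc (11.4-fold), rank 5. None of the 29 arrays outside the XY germ cells of these stages reached the lowest XY germ value of either stage, and the highest among them read 6.17.

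Lhx1 peaked in XY germ cells at 12.5 dpc and not at 13.5 dpc. It read 7.26, 6.74 and 7.52 in XY germ cells at 11.5 dpc, 8.60, 8.46 and 8.67 at 12.5 dpc, and 7.31, 7.86 and 8.21 at 13.5 dpc. The means were 7.17 ± 0.40, 8.58 ± 0.10 and 7.79 ± 0.45 (SD, n = 3), and the 12.5 dpc arrays stood clear of both neighbours while those of 11.5 and 13.5 dpc overlapped. With row sets aligned, as explained under processing, the arrays of 11.5 dpc (7.20, 6.76 and 6.96) lay below those of 13.5 dpc (7.57, 7.98 and 8.12). In XX germ cells it read 7.09, 6.60 and 6.87, then 7.25 and 6.63, then 6.57, 6.04 and 5.49. XY minus XX germ cells was 1.63 at 12.5 dpc (3.10-fold, rank 16) and 1.76 at 13.5 dpc (3.38-fold, rank 58). The gap was thus of similar size at both stages although the XY level at 13.5 dpc stood -0.78 from that at 12.5 dpc, since the XX level stood -0.91 from its own. At 13.5 dpc, 1 of the 29 other arrays, an XY germ array of 11.5 dpc at 7.52, was at or above the lowest XY germ value. With row sets aligned that array read 6.96, below the lowest XY germ value of 13.5 dpc at 7.57. Supporting cell means were 5.60 to 6.19.

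Because Lhx1 is also a gene of the mesonephric ducts, 7 measured markers of mesonephric and epithelial cells were set beside it. Their median was 7.06 to 7.36 in XY germ arrays at 12.5 dpc, 6.88 to 7.17 in those at 11.5 dpc and 6.86 to 7.21 in XX germ arrays at 12.5 dpc. Of these markers Cdh1, which germ cells also express, read 9.28 in XY germ cells at 12.5 dpc against 8.41 in XX. Epcam, likewise a germ cell gene, read 9.88 against 9.57, Pax2 7.74 against 7.41, Wnt9b 7.06 against 6.95 and Pax8 6.97 against 6.92. The remaining markers were lower in XY, Cdh16 at 5.95 against 6.49 and Emx2 at 5.21 against 5.75. Their part in the Lhx1 values was not tested.

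Bnc2 read high in XX supporting cells as well as in later XY germ cells. It read 6.75, 6.48 and 6.30 in XY germ cells at 11.5 dpc, 8.67, 8.09 and 8.65 at 12.5 dpc, and 10.31, 10.76 and 10.61 at 13.5 dpc. The means of 6.51 ± 0.22, 8.47 ± 0.33 and 10.56 ± 0.23 (SD, n = 3) were separated by 1.96 and then 2.09. XX germ cells read 6.45, 6.27 and 6.52, then 7.04 and 7.29, then 8.31, 7.21 and 8.09. Their levels also lay higher at later stages, with means of 6.41 ± 0.13 (SD, n = 3), 7.17 ± 0.17 (SD, n = 2) and 7.87 ± 0.58 (SD, n = 3). XX supporting cells read 9.12, 9.09 and 9.05 at 11.5 dpc, 8.83, 9.23 and 8.47 at 12.5 dpc, and 8.50, 8.29 and 8.33 at 13.5 dpc. XY supporting cells read 8.73, 7.98 and 7.50, then 7.20, 6.90 and 7.22, then 6.50, 6.69 and 6.47. The lowest supporting levels, those of XY cells at 13.5 dpc, overlapped those of germ cells at 11.5 dpc.

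XY minus XX germ cells for Bnc2 was 1.31 at 12.5 dpc (2.47-fold, rank 31) and 2.69 at 13.5 dpc (6.46-fold, rank 13). At 12.5 dpc the XY germ arrays did not stand clear, since 11 of the 29 other arrays, 10 of them among the 18 of supporting cells, were at or above the lowest XY germ value of 8.09. At 13.5 dpc 0 of 29 were, the highest reading 9.23. With the left-out array included, which read 9.21, the difference at 12.5 dpc was 0.63.

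Mgst2 had the widest gap. It read 7.50, 6.78 and 7.82 in XY germ cells at 11.5 dpc, 10.25, 10.18 and 10.33 at 12.5 dpc, and 10.05, 10.74 and 10.46 at 13.5 dpc. The means were 7.37 ± 0.53, 10.25 ± 0.08 and 10.42 ± 0.35 (SD, n = 3), so that 2.89 of the 3.05 between the first and the last stage lay before 12.5 dpc, and the arrays of the later stages overlapped. With row sets aligned they did not overlap, at 9.82, 10.28 and 10.21 (12.5 dpc) and 10.38, 10.36 and 10.34 (13.5 dpc). XX germ cells read 6.21, 7.46 and 7.24, then 6.52 and 6.90, then 6.34, 5.96 and 5.48, the lowest group of all 12. The difference between the karyotypes was 3.54 at 12.5 dpc (11.6-fold) and 4.49 at 13.5 dpc (22.5-fold), rank 3 of 19938 genes at both stages. Supporting cells read between 5.87 and 8.19, and 0 of 29 other arrays reached the XY germ arrays at either stage.

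For orientation, 1.80% of the 19938 genes passed the limma test between XY and XX germ cells at 12.5 dpc and 9.21% at 13.5 dpc. Since the genes were chosen on those levels, nothing is read from their place among them.

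**Figure D1:**
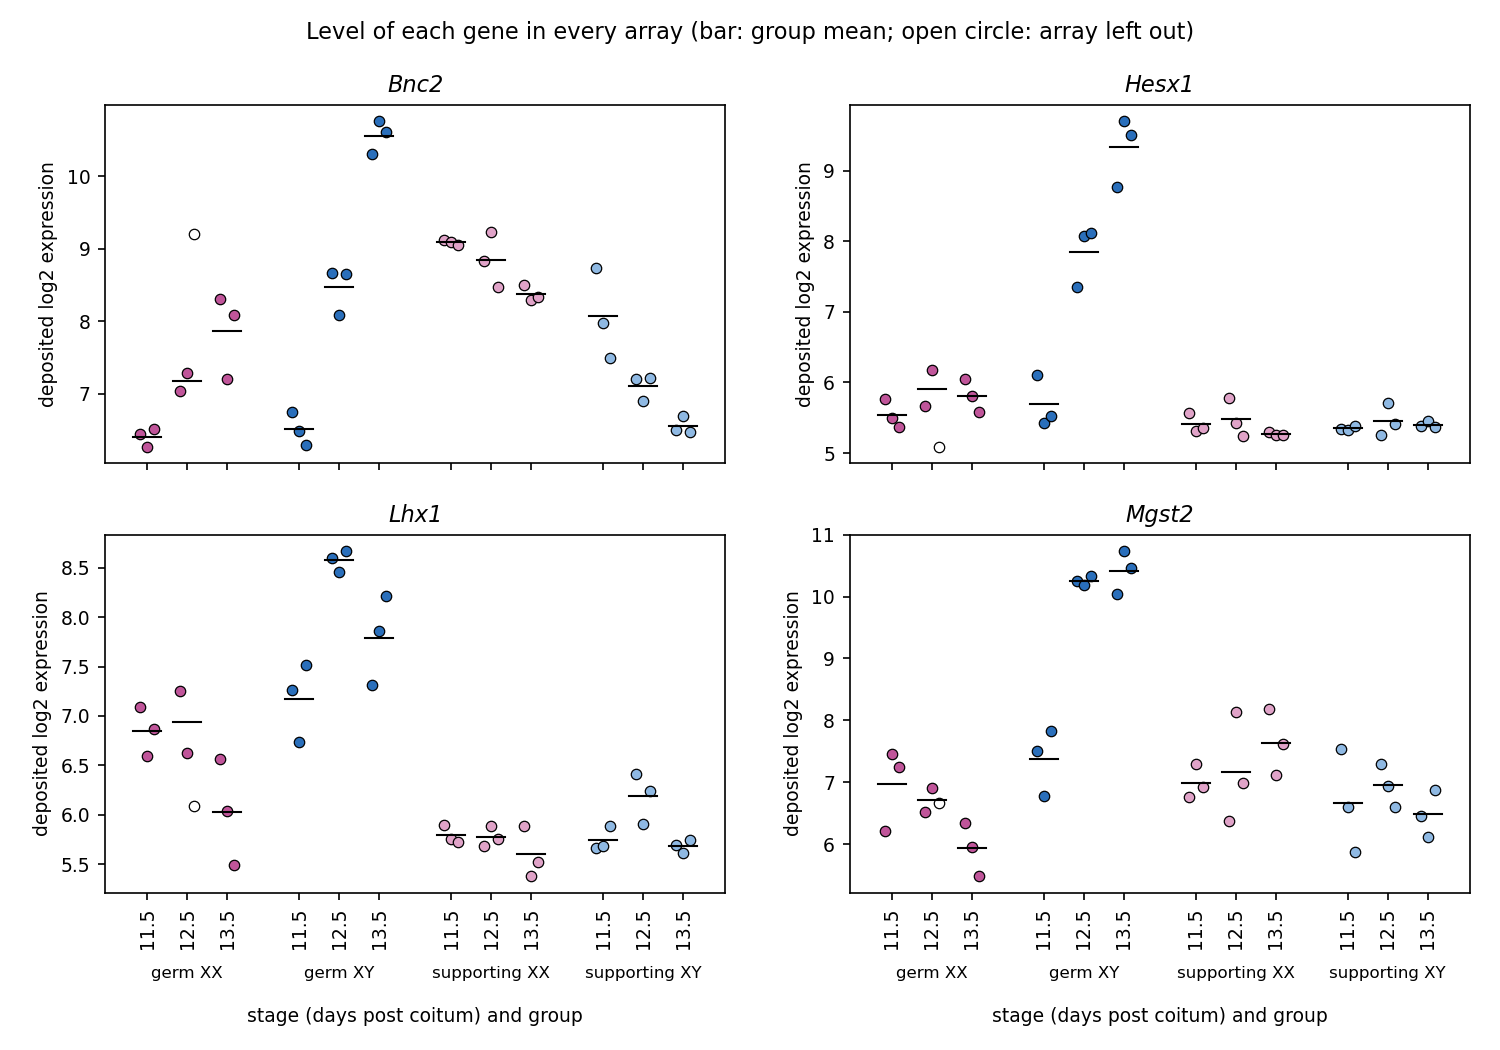
Deposited log2 expression (vertical axis, its range set for each gene) of Bnc2, Hesx1, Lhx1 and Mgst2 in every array, by stage in days post coitum, with cell type and karyotype along the horizontal axis. Filled points are arrays, bars group means, and the open circle the array left out. Hesx1 and Mgst2 in XY germ cells of 12.5 and 13.5 dpc lie above all other arrays, Lhx1 is highest at 12.5 dpc with a mean of 8.58, and XX supporting cells hold Bnc2 at means of 8.37 to 9.09.

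Before the stages on which the genes were chosen, the karyotypes were compared in germ cells at 11.5 dpc. A gene passed when its p from limma, adjusted by the Benjamini-Hochberg method over 19938 genes, was under 0.05, and 0.0251% of genes did. None of the 4 genes passed, and 0 had an unadjusted p under 0.05. XY minus XX was 0.10 (95% interval -0.37 to 0.57) for Bnc2, 0.15 (-0.29 to 0.58) for Hesx1, 0.32 (-0.13 to 0.77) for Lhx1 and 0.40 (-0.27 to 1.07) for Mgst2, with an adjusted p of 1 for each. The widest interval, that of Mgst2, reaches 1.07.

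The XX germ cells, which the rule of choice did not name, were compared over time. Between 11.5 and 13.5 dpc Bnc2 rose by 1.45 (SE 0.23, adjusted p = 6.41e-06), Lhx1 fell by 0.82 (SE 0.22, adjusted p = 0.00669) and Mgst2 fell by 1.04 (SE 0.33, adjusted p = 0.0237). Thus 3 of 4 genes passed, where 15.3% of all genes did, and the median over all genes was -0.14. Bnc2 at 13.5 dpc stood above every XX array of 11.5 dpc, and Lhx1 below every one. Mgst2 overlapped by 1 array, the 11.5 dpc replicate 1 at 6.21. With row sets aligned that array read 6.34 and the highest XX germ array of 13.5 dpc 6.33. Hesx1 did not pass (0.27, 95% interval -0.16 to 0.71, adjusted p = 0.382).

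The calls for Lhx1 and Mgst2 were lost when single arrays were left out. For Lhx1 the difference was -0.70 (adjusted p = 0.0585) without XX 11.5 dpc replicate 1 and -0.55 (adjusted p = 0.148) without XX 13.5 dpc replicate 3. For Mgst2 it did not pass without XX 11.5 dpc replicate 2 (-0.80, adjusted p = 0.14) or replicate 3 (-0.91, adjusted p = 0.101), nor without XX 13.5 dpc replicate 2 (-1.06, adjusted p = 0.0584) or replicate 3 (-0.82, adjusted p = 0.169). Nor did Mgst2 pass with the left-out array in the fit (adjusted p = 0.0589) or after the alignment of row sets explained under processing (-0.80, adjusted p = 0.128). Bnc2 passed under each of these settings.

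Between 11.5 and 12.5 dpc in XX germ cells, where 1.15% of genes passed, none of the 4 did. Bnc2, the 1 gene with an unadjusted p under 0.05, stood at 0.75 (SE 0.26, limma adjusted p = 0.169). It passed only with the left-out array (1.43, adjusted p = 0.0162), whose own Bnc2 value was 9.21. At 13.5 dpc the stromal marker median of XX germ arrays was 6.02 to 6.98 against 6.54 to 6.95 at 11.5 dpc, and the supporting marker median was 6.32 to 6.80 against 6.39 to 6.85. The germ marker median was 9.71 to 10.46 against 10.07 to 10.30. XX 13.5 dpc replicate 1 had the highest Bnc2 value of its group at 8.31, and the highest stromal (6.98) and supporting (6.80) medians. It also had the highest median of its group for every other marker list, including the germ cell markers (10.46 against 9.92 and 9.71). Bnc2 read 7.21 and 8.09 in replicates 2 and 3, at stromal medians of 6.18 and 6.02. With row sets aligned Bnc2 was highest in replicate 3, at 8.46 against 8.22 in replicate 1. The part of these markers in the Bnc2 values was not tested. In sorted pools, fewer cells of a type and less RNA per cell cannot be told apart.

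The karyotypes were compared in supporting cells at each stage. XY minus XX supporting cells for Bnc2 was -1.02 at 11.5 dpc (SE 0.23, 95% interval -1.49 to -0.55, adjusted p = 0.00401), -1.73 at 12.5 dpc (SE 0.23, adjusted p = 7.1e-08) and -1.82 at 13.5 dpc (SE 0.23, adjusted p = 2.25e-08). The XX cells were thus the higher ones, and at each stage every XX supporting array lay above every XY one. Of the 4 genes Bnc2 alone passed at 11.5 and 12.5 dpc, where 3.33% and 13.4% of all genes passed, and Bnc2 and Mgst2 passed at 13.5 dpc, where 12.2% did. The 11.5 dpc call, the one made within a single mouse line, was the least firm. It was lost without XY supporting replicate 3 (-0.74, adjusted p = 0.135), with the left-out array in the fit (adjusted p = 0.141) and in a fit of only these 6 arrays (adjusted p = 0.127).

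Mgst2 in XY supporting cells at 13.5 dpc was lower than in XX (-1.15, SE 0.33, adjusted p = 0.0125). The XX arrays read 8.19, 7.12 and 7.61 and the XY arrays 6.46, 6.12 and 6.88. The groups did not overlap, but the call was lost without XX replicate 1 (-0.88, adjusted p = 0.131) or XY replicate 2 (-0.97, adjusted p = 0.0979). In XX replicate 1, the highest for Mgst2, the germ marker median was 6.60 against 5.78 and 5.91 in the other XX arrays, and Mgst2 in XX germ cells of that stage was 5.93 ± 0.43 (SD, n = 3). Whether germ cell RNA contributed was not tested.

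Hesx1 and Lhx1 did not pass between the karyotypes of supporting cells at any stage. The largest such difference was that of Lhx1 at 12.5 dpc (0.41, 95% interval -0.04 to 0.86, adjusted p = 0.297). Over time in XX supporting cells, from 11.5 to 13.5 dpc, 4.10% of genes passed and none of the 4 did. Bnc2, the 1 gene with an unadjusted p under 0.05, stood at -0.71 (SE 0.23, adjusted p = 0.0789), and it passed after quantile normalisation (-0.82, adjusted p = 0.0215), with row sets aligned (-0.71, adjusted p = 0.0159) and in a fit of only these arrays (adjusted p = 0.00378). In XY supporting cells between 12.5 and 13.5 dpc 0.918% of genes passed and again none of the 4. Bnc2 (-0.56, 95% interval -1.03 to -0.09, adjusted p = 0.308) and Lhx1 (-0.50, 95% interval -0.95 to -0.05, adjusted p = 0.333) had an unadjusted p under 0.05, beside a median of -0.17 over all genes. The 11.5 dpc XY supporting cells were of another line than the later ones, so no change from 11.5 dpc was tested there.

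The higher Bnc2 level of XX supporting cells was set beside the stromal markers, because mesenchymal cells also express Bnc2. The median of the 8 stromal markers was 6.96 to 7.26 in XX and 6.97 to 7.18 in XY supporting arrays at 11.5 dpc, 6.42 to 6.95 against 7.22 to 7.47 at 12.5 dpc, and 6.56 to 6.78 against 7.12 to 7.21 at 13.5 dpc. The number of stromal markers above the array median was 4, 3 and 4 of 8 in XX and 5, 5 and 6 of 8 in XY. Markers of the list differed in direction. Nr2f2 was higher in XX at each stage, with XX means of 9.52, 8.69 and 8.06 and XY means of 8.39, 7.15 and 7.41. Col3a1 was so by less, with XX means of 7.41, 7.62 and 7.65 and XY means of 7.39, 7.47 and 7.29, and Lum had XX means of 4.85, 5.04 and 4.81 and XY means of 4.80, 4.95 and 4.79. Pdgfra was lower in XX at each stage, with XX means of 7.84, 6.82 and 6.89 and XY means of 9.65, 7.61 and 7.08. Postn was lower in XX at each stage as well, at 6.34, 6.62 and 6.47 against 6.77, 8.08 and 7.93 in XY. Tcf21, Dcn and Col1a1 were higher in XX at 11.5 dpc and lower at 13.5 dpc. The median of the mesonephric and epithelial markers was higher in XX at 12.5 and 13.5 dpc, but its members differed. At 11.5 dpc it was 6.97 to 7.17 in XX against 6.78 to 7.02 in XY. The values were 6.97 to 7.18 against 6.16 to 6.50 at 12.5 dpc, and 6.65 to 7.04 against 6.05 to 6.43 at 13.5 dpc. Of that list Emx2, which supporting cells also express, had XX means of 8.79, 8.85 and 8.44 and XY means of 7.82, 5.70 and 5.86. Pax8, Wnt9b and Epcam were higher in XX at each stage by less. The others were lower in XX at 13.5 dpc, Pax2 at 7.55 against 7.72, Cdh1 at 6.05 against 6.08 and Cdh16 at 5.96 against 5.98. The part of these markers in the Bnc2 values was not tested. The left-out array combined a Bnc2 value of 9.21 with the highest stromal median of the series, 9.74.

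**Figure D2:**
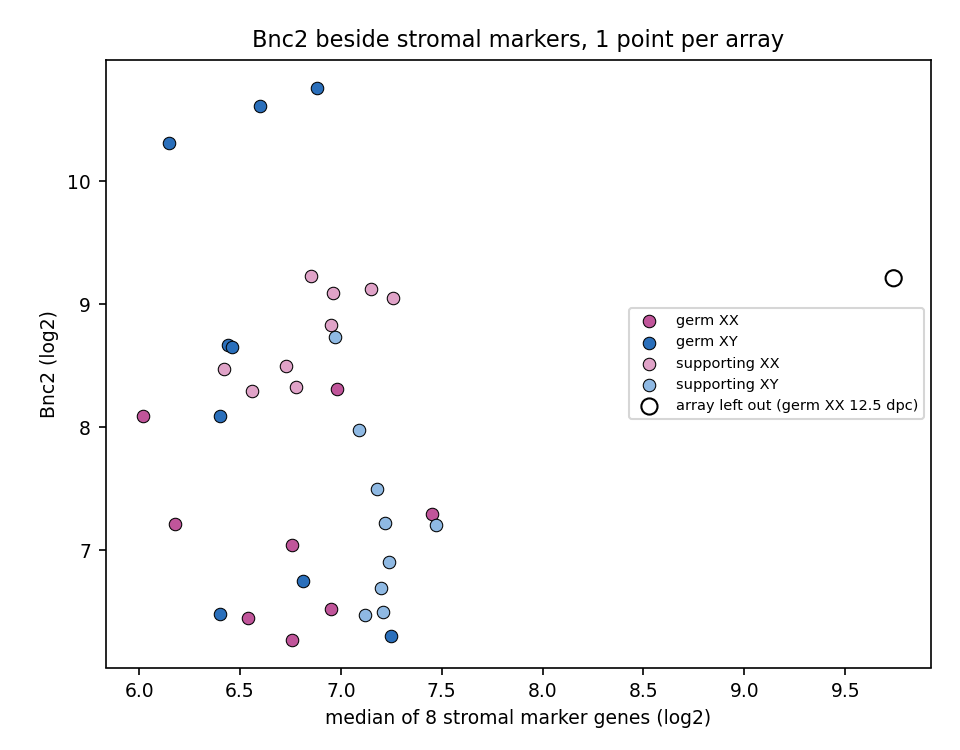
Bnc2 (log2, vertical axis) against the median of 8 stromal marker genes (log2, horizontal axis), 1 point per array, coloured by cell type and karyotype. At 12.5 and 13.5 dpc XX supporting arrays hold more Bnc2 than XY supporting arrays at lower stromal medians. XY germ arrays of 13.5 dpc are highest at 10.31 to 10.76, and the left-out array stands apart at a stromal median of 9.74.

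Germ and supporting cells were then compared directly. In XX gonads, over the mean of the 3 stages, 38.1% of genes passed, and all 4 genes did. Bnc2 was lower in germ cells (-1.62, SE 0.14, adjusted p = 2.78e-14) and Mgst2 lower as well (-0.73, SE 0.20, adjusted p = 0.0022). Lhx1 was higher in germ cells (0.89, SE 0.13, adjusted p = 1.91e-07), and so was Hesx1 (0.37, SE 0.13, adjusted p = 0.0193). Both Hesx1 means, 5.76 in germ and 5.39 in supporting cells, lay below every array median (6.54 to 7.01). The Hesx1 call was lost without XX germ 12.5 dpc replicate 2 (0.28, adjusted p = 0.125) and with the left-out array in the fit (0.28, adjusted p = 0.123). In the XY gonad at 11.5 dpc 28.2% of genes passed, and Bnc2 (-1.56, SE 0.23, adjusted p = 3.5e-07) and Lhx1 (1.42, SE 0.22, adjusted p = 9.06e-07) passed in the same directions. Hesx1 (0.34, adjusted p = 0.298) and Mgst2 (0.70, adjusted p = 0.125) did not. Mgst2 passed without XY germ replicate 2 (0.99, adjusted p = 0.0377) or XY supporting replicate 1 (1.13, adjusted p = 0.00899). Germ and supporting cells carried different reporters on different backgrounds in both comparisons, and cell type cannot be told apart from line.

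The change from 11.5 to 13.5 dpc in XX germ cells was finally compared with that in XX supporting cells, in a test of the difference itself that uses the same arrays as the comparisons above. Here too cell type cannot be told apart from line. Bnc2 and Mgst2 passed, where 8.83% of genes did. For Bnc2 the germ cell change exceeded the supporting cell change by 2.17 (SE 0.33, adjusted p = 4.57e-06), the germ cells gaining 1.45 while the supporting cells moved by -0.71. For Mgst2 the difference was -1.69 (SE 0.47, adjusted p = 0.0134), with -1.04 in germ cells and 0.65 in supporting cells. It was lost without XX germ 11.5 dpc replicate 2 (-1.44, adjusted p = 0.0581), XX germ 13.5 dpc replicate 3 (-1.47, adjusted p = 0.065) or XX supporting 13.5 dpc replicate 1 (-1.42, adjusted p = 0.0696), and with row sets aligned (-1.41, adjusted p = 0.0542). Hesx1 (0.41, 95% interval -0.20 to 1.03, adjusted p = 0.568) and Lhx1 (-0.62, 95% interval -1.26 to 0.02, adjusted p = 0.293) did not pass.

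**Figure D3:**
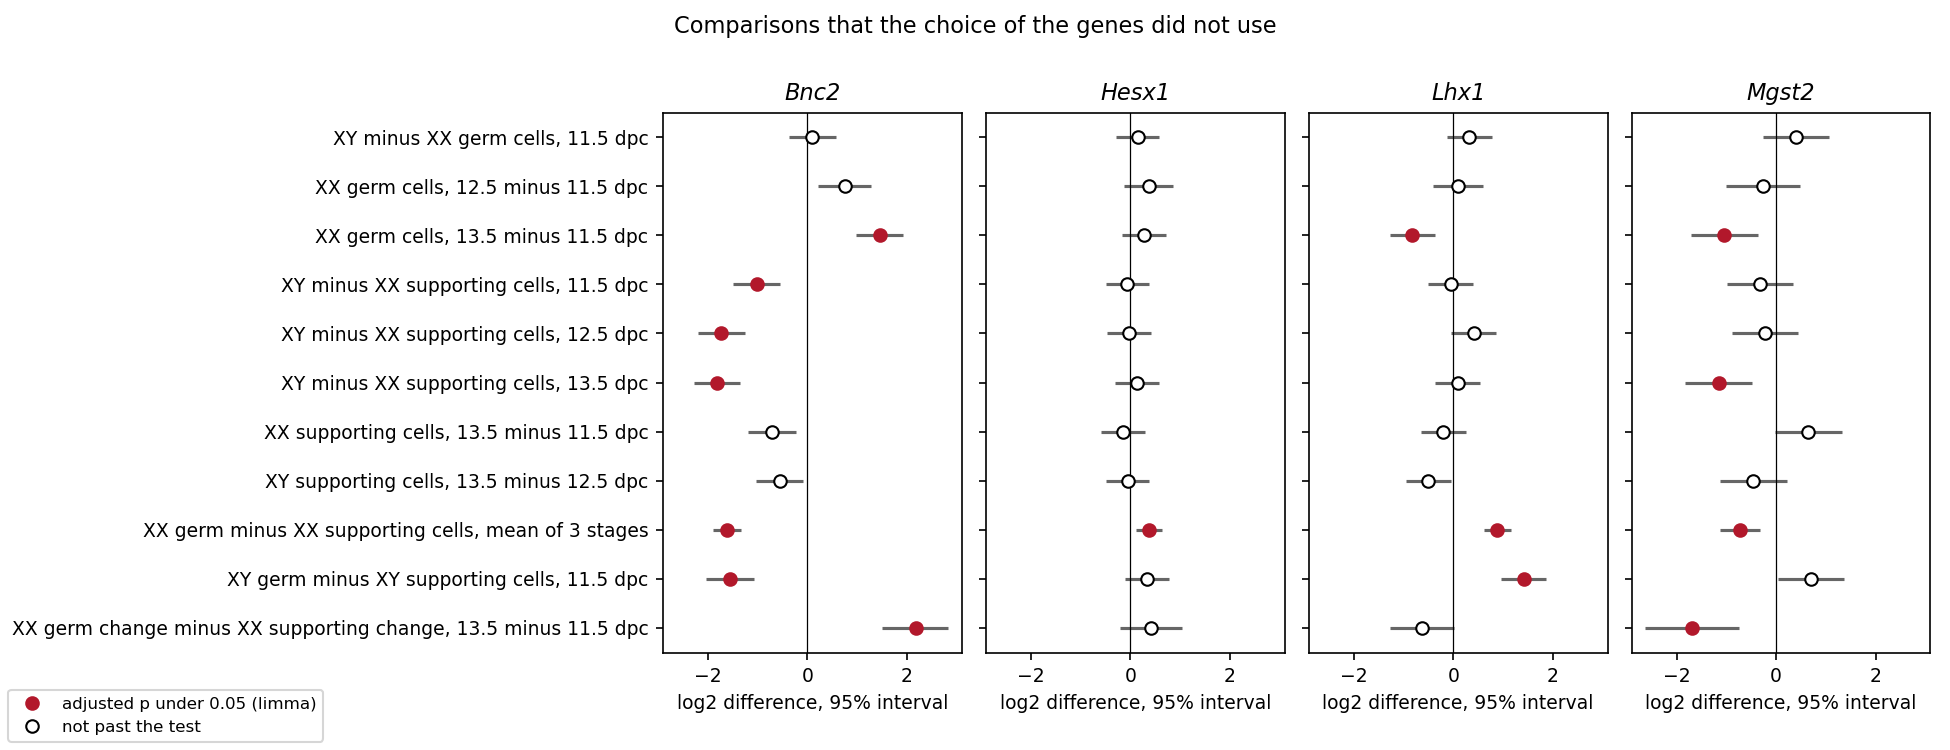
Differences (log2, horizontal axis) with 95% intervals for the 11 comparisons without the levels named in the rule of choice (rows), in 1 panel per gene. Filled red points had a limma adjusted p under 0.05. Bnc2 passed in 7 comparisons and lay above 0 in XX germ cells over time but below 0 wherever XY supporting cells were set against XX, while Hesx1 passed in 1.

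To place the 4 genes, related genes were read in the XY minus XX germ comparison from 7 lists made around their families and roles. At 11.5 dpc 0 genes of the 7 lists passed the limma test, and 10 had an unadjusted p under 0.05. At 12.5 dpc 8 passed the limma test, with 28 at an unadjusted p under 0.05, and at 13.5 dpc 31 passed, with 48. The share of all genes with an unadjusted p under 0.05 was not counted, so nothing is read from the unadjusted counts, here, above or below. The lists were made with results of these data known. Their counts past the limma test are read against all genes, of which 0.426% were higher and 1.37% lower in XY at 12.5 dpc, and 5.28% higher and 3.93% lower at 13.5 dpc.

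NODAL signalling had 16 of 18 genes measured. At both stages 3 genes were higher in XY and 0 lower, and the list median was -0.20 at 12.5 dpc and 0.29 at 13.5 dpc, beside 0.02 and 0.07 over all genes. The co-receptor Tdgf1 was 2.87 higher at 12.5 dpc (SE 0.28, adjusted p = 2.55e-10) and 3.36 higher at 13.5 dpc (SE 0.25, adjusted p = 1.22e-14). The antagonists Lefty1 and Lefty2 were higher by 1.31 (adjusted p = 0.00168) and 0.96 (adjusted p = 0.031), and then by 1.60 (adjusted p = 1.29e-06) and 1.34 (adjusted p = 2.43e-05). At 12.5 dpc Lefty1 was lost without XX replicate 2 (adjusted p = 0.0746) or XY replicate 2 (adjusted p = 0.0545). Lefty2 was lost without either XX array (adjusted p = 0.189 without replicate 1 and 0.132 without replicate 2) or without XY replicate 3 (adjusted p = 0.233).

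The male germ cell list had all 19 genes measured. At 12.5 dpc 1 was higher and 2 lower (median -0.04), and at 13.5 dpc 9 were higher and 2 lower (median 0.54). The ETS factor Etv1 was 2.77 higher at 12.5 dpc (SE 0.27, adjusted p = 2.01e-10). At 13.5 dpc the RNA-binding protein gene Nanos2 was 3.89 higher (SE 0.23, adjusted p = 6.63e-19), Morc1 2.67 (SE 0.23, adjusted p = 6.54e-13) and Tdrd5, a gene of the piRNA pathway, 2.41 (SE 0.22, adjusted p = 6.6e-12). The germ cell surface gene Tex101 was lower in XY (-0.99 at 12.5 dpc, adjusted p = 0.0182, and -2.65 at 13.5 dpc, adjusted p = 2.01e-13). The orphan nuclear receptor gene Nr6a1 was also lower (-1.92, adjusted p = 5.55e-07, and -1.56, adjusted p = 9.49e-07). At 12.5 dpc Tex101 was lost without XX replicate 1 (adjusted p = 0.15), XX replicate 2 (adjusted p = 0.109) or XY replicate 2 (adjusted p = 0.0851) and with row sets aligned (adjusted p = 0.379). With the left-out array in the fit both Tex101 (adjusted p = 0.205) and Nr6a1 (adjusted p = 0.162) were lost at that stage.

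Around Bnc2, a list of its relative Bnc1 and of cell cycle genes had 18 of 19 genes measured. None passed the limma test at 12.5 dpc (median -0.06), where 3 had an unadjusted p under 0.05, and at 13.5 dpc 4 were higher and 5 lower (median -0.18). Bnc1 was 0.29 at 12.5 dpc (adjusted p = 0.632) and 1.20 higher at 13.5 dpc (SE 0.23, adjusted p = 0.000189). The kinases Cdk6 (1.87, adjusted p = 6.83e-06) and Cdk4 (1.12, adjusted p = 0.000171) were higher. The cyclins Ccnd1 (-1.41, adjusted p = 4.26e-05), Ccne2 (-1.55, adjusted p = 6.59e-05) and Ccne1 (-1.30, adjusted p = 8.49e-05), which drive the start of DNA synthesis, were lower. These 6 genes passed under every setting tried at 13.5 dpc. The other called genes of the list, the kinase inhibitor genes Cdkn1b (1.41, higher), Cdkn2c (-0.59, lower) and Cdkn2d (-0.63, lower), did not.

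Around Hesx1 and Lhx1, a list of head and forebrain factors had 18 of 21 genes measured. At each stage 1 was higher and 0 lower, with medians of -0.03 and 0.21. At 12.5 dpc it was Otx2, a homeodomain factor of the forebrain (1.39, SE 0.26, adjusted p = 0.000996), which was lost without XX replicate 2 (adjusted p = 0.0563) and read 0.65 at 13.5 dpc (adjusted p = 0.0807). At 13.5 dpc it was Eomes, a T-box factor (0.75, SE 0.20, adjusted p = 0.00679), lost without XX replicate 3 (adjusted p = 0.139) or XY replicate 2 (adjusted p = 0.128).

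The LIM homeodomain and cofactor list had 20 of 21 genes measured, with 0 higher and 1 lower at each stage (medians -0.14 and 0.15). Lhx5, the closest relative of Lhx1, read -0.25 at 12.5 dpc and 0.22 at 13.5 dpc (adjusted p = 0.619) and did not pass. Ldb2, a LIM cofactor, was lower at 12.5 dpc (-1.17, SE 0.33, adjusted p = 0.0494), and the call was lost without any of 4 arrays (XX replicate 1, adjusted p = 0.104, XX replicate 2, 0.442, XY replicate 1, 0.1, and XY replicate 2, 0.363) or with row sets aligned (0.107). Lmo4, a LIM-only gene, was lower at 13.5 dpc (-0.87, SE 0.29, adjusted p = 0.0416). It was lost without XX replicate 1 (adjusted p = 0.177), XX replicate 2 (0.0919) or XY replicate 1 (0.316) and with the left-out array in the fit (0.0975).

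Around Mgst2, the family of membrane-bound glutathione transferases and leukotriene enzymes had 13 of 14 genes measured. No gene passed the limma test at 12.5 dpc (median -0.04, with 0 at an unadjusted p under 0.05) and 1 was higher at 13.5 dpc (median 0.13). The relatives Mgst1 (0.51 at 12.5 dpc and 0.73 at 13.5 dpc, adjusted p = 0.0582) and Mgst3 (0.45 and 0.03, adjusted p = 0.967) did not pass. The gene that did was Abcc1, a transporter that exports leukotriene C4 (0.65, SE 0.21, adjusted p = 0.0425). Its call was lost without XX replicate 2 (adjusted p = 0.352), XX replicate 3 (0.193) or XY replicate 3 (0.293), with the left-out array in the fit (0.076) and in a fit of only these 6 arrays (0.124).

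Soluble glutathione enzymes had 21 of 22 genes measured, with 0 past the limma test at 12.5 dpc (median -0.04, with 2 at an unadjusted p under 0.05) and 2 higher and 3 lower at 13.5 dpc (median -0.03). Gstm2 (1.28, adjusted p = 0.00181) and Gpx1 (0.82, adjusted p = 0.00484) were higher, and Gsta4 (-0.97, adjusted p = 0.00463), Gstp1 (-0.87, adjusted p = 0.00578) and Gpx3 (-0.75, adjusted p = 0.0496) lower. None of these 5 passed under every setting. Without 1 array, Gpx1 was lost for XX replicate 3 (0.0845) and XY replicate 2 (0.0554), Gsta4 for XX replicate 2 (0.0917), and Gstp1 for XY replicate 1 (0.0517) and XY replicate 3 (0.0575). Gpx3 was lost for XX replicates 2 (0.142) and 3 (0.187) and XY replicates 1 (0.186) and 3 (0.132). With the left-out array in the fit Gstm2 (0.0904), Gstp1 (0.061) and Gpx3 (0.128) were lost, and Gpx3 also with the replicate block (0.0521) or with the other groups taken out of the fit (0.0525).

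**Figure D4:**
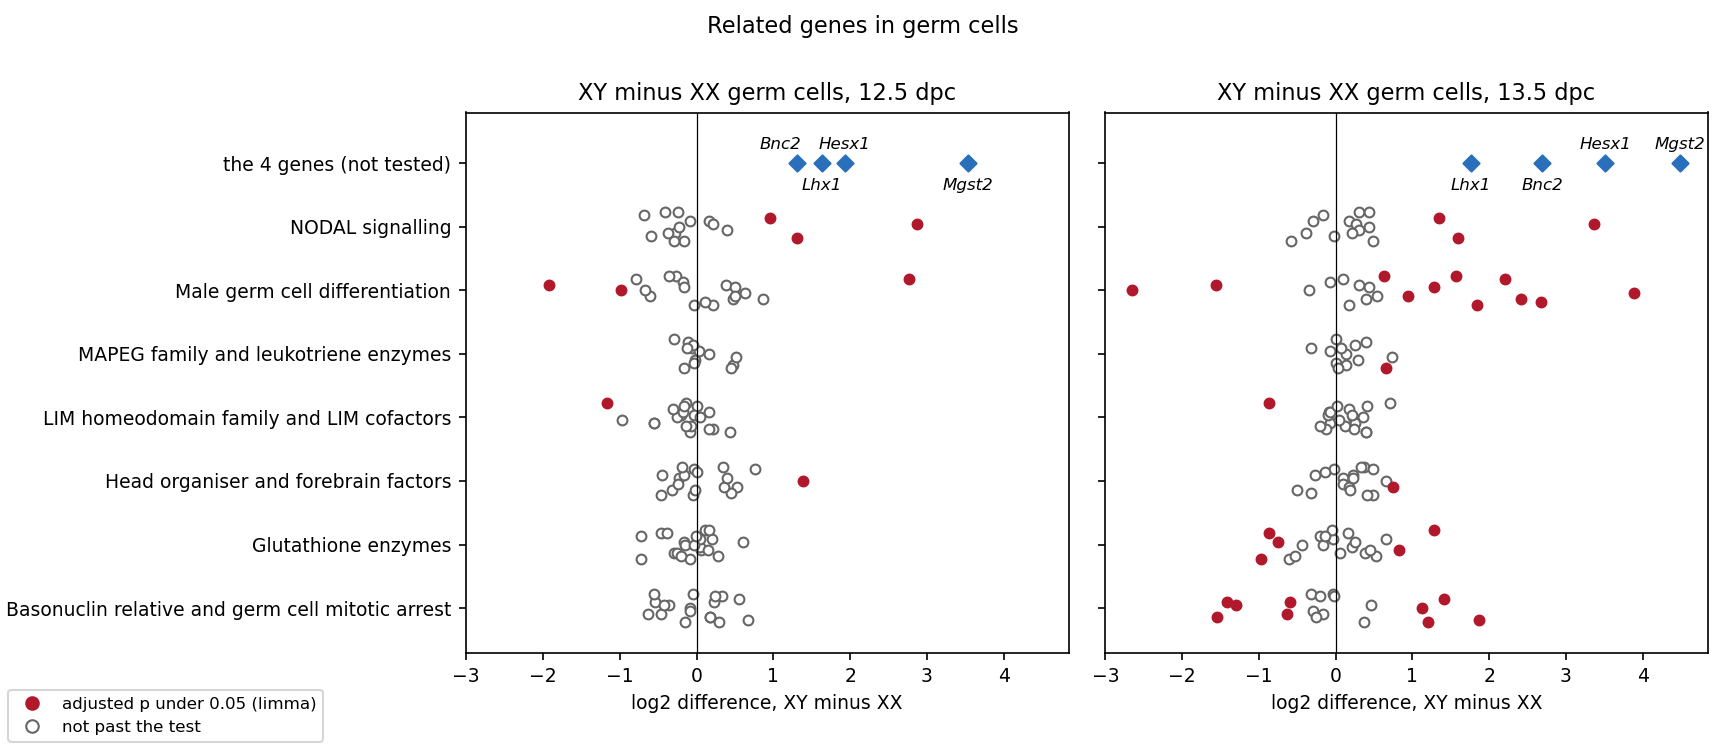
XY minus XX germ cell differences (log2, horizontal axis) at 12.5 dpc (left) and 13.5 dpc (right) for the genes of 7 lists (rows, points spread vertically for legibility), with Bnc2, Hesx1, Lhx1 and Mgst2 as untested diamonds in the top row. Red points had a limma adjusted p under 0.05, of which there were 8 at 12.5 dpc and 31 at 13.5 dpc. Of the family lists around the 4 genes, that around Bnc2 had 4 of 18 genes higher and 5 lower at 13.5 dpc. The others had at most 1 gene past the test at each stage.

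The genes most like each of the 4 were read from the Pearson correlation of the 12 group means among 7388 genes whose group means spanned at least 1 on the log2 scale. These are descriptions over 12 points that share arrays between genes. For Hesx1 they were Rasd2 (0.98), Cntfr (0.976), Pmaip1 (0.973), Ucma (0.973) and the Y-linked Usp9y (0.964). With row sets aligned their correlations were 0.902, 0.895, 0.966, 0.995 and 0.933 in that order. Usp9y read low, with germ means of 4.63 to 5.84, below every array median (6.54 to 7.01). Ucma, for example, had XY germ means of 6.15, 7.43 and 7.87 over the 3 stages and XX germ means of 6.12, 6.35 and 5.78.

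For Lhx1 the most alike were Actn2 (0.967), Lefty2 (0.967), Rnmt (0.965), Rimbp2 (0.957) and 1700024G13Rik (0.955). With row sets aligned these were 0.932, 0.961, 0.927, 0.983 and 0.971 in that order. Lefty2 had XY germ means of 5.63, 6.60 and 5.92, also highest at 12.5 dpc, and an XX germ mean of 4.58 at 13.5 dpc. For Mgst2 the most alike were Hlf (0.945), Ift172 (0.938), Irgm1 (0.932), Usp9y (0.925) and Cthrc1 (0.925), and Cthrc1 had XY germ means of 7.86, 9.57 and 10.21. With row sets aligned these were 0.925, 0.813, 0.936, 0.86 and 0.911 in that order. Bnc2 had no match as close. Its nearest genes were Dapk2 (0.865), Tnnt1 (0.854), Mettl7a1 (0.847), Xkrx (0.817) and Dgka (0.808), and Dgka had XY germ means of 6.51, 8.44 and 9.86. With row sets aligned these were 0.857, 0.84, 0.806, 0.764 and 0.764 in that order.

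Among the 4 genes themselves the correlation of group means was 0.89 between Hesx1 and Mgst2, 0.79 between Hesx1 and Lhx1 and between Lhx1 and Mgst2, and 0.63 and 0.61 for Bnc2 with Hesx1 and Mgst2. It was 0.16 between Bnc2 and Lhx1. Over the 6 supporting cell groups, which the rule of choice did not name, it was -0.38 between Hesx1 and Mgst2, 0.62 between Hesx1 and Lhx1 and -0.20 between Lhx1 and Mgst2. For Bnc2 it was there -0.07 with Hesx1, -0.28 with Lhx1 and 0.57 with Mgst2. The common choice for high XY germ levels enters the values over 12 groups.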

How the data were processed

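RNA of the sorted cells was measured on Mouse Gene 1.0 ST arrays of Affymetrix. The deposited values are log2 expression per probe set, summarised by the authors with RMA per the submitters' processing notes (version and genome build are not given in the sources used here). Its 36 columns, all mapped to samples, list 35557 probe sets and range from 3.17 to 15.05. Of these probe sets, 21789 had 1 symbol in the platform annotation and 1621 several. The highest-mean probe set stood for each of 19938 genes, of which 19856 matched a RefSeq gene. The 4 genes and the gene lists were chosen with earlier results of these data known.

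limma 3.58.1 in R 4.3.3 was fitted to 35 arrays with 12 group means (23 residual degrees of freedom), with Benjamini-Hochberg adjustment over all genes, and tested on simulated data. The number of arrays limits the precision. Python 3.11.15 with pandas 2.3.3 and matplotlib 3.10.9 served for the rest. From each list, up to 3 genes per direction with the smallest adjusted p under 0.05 between XY and XX germ cells at 12.5 and at 13.5 dpc are named, with Bnc1, Lhx5, Mgst1 and Mgst3 always, the 5 genes most like each of the 4, and markers that move with a gene. Beyond this rule, the remaining called genes of the list around Bnc2 are named.

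The deposited values of each array fell into interleaved sets of rows on separate straight-line scales (107 sets, 3 in 35 arrays and 2 in the other), whose medians lay 0.02 to 0.75 apart within an array (median 0.3). The origin of these sets is unknown. Aligning them (dividing by each slope and setting 1 median) is an alternative, beside all 36 arrays, centred arrays, quantile normalisation, a fit of only the groups compared, the replicate number as a block, dim genes left out and each array left out in turn. No other probe set carried the symbol of any of the 4 genes, so that alternative could not be run.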

Additional observations from a re-analysis of the deposited data

Results flagged for a closer look

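For Bnc2 the change from 11.5 to 13.5 dpc in XX germ cells differed from that in XX supporting cells by 2.17 (SE 0.33, limma adjusted p = 4.57e-06). For Mgst2 the same difference was -1.69 (SE 0.47, limma adjusted p = 0.0134). Both drew attention because the change differed between the cell types in a test of the difference itself. The 2 cell types came from different mouse lines, and cell type cannot be told apart from line. The array labelled germ XX 12.5 dpc replicate 3, which was left out of the comparisons, read 9.21 for Bnc2 against 7.04 and 7.29 in the other arrays of its label. Groups of 2 or 3 arrays are too small for a check of single outlying arrays.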

How the results depend on the processing

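Over the comparisons without the levels named in the rule of choice, the difference of a gene kept its direction and its side of the threshold in 265 of the values recomputed under another setting and in 301 of those with 1 array left out. It lost the call in 6 and 13, gained it in 4 and 2, and changed sign in 11 and 12, all of these last past the test under neither setting. With all 36 arrays the count of the 4 genes past the test went from 0 to 1 in XX germ cells between 11.5 and 12.5 dpc and from 1 to 0 between the karyotypes of supporting cells at 11.5 dpc, the latter also in a fit of only the groups compared. In XX supporting cells over time it went from 0 to 1 after quantile normalisation, with row sets aligned and with only the groups compared. For the difference of the XX changes it was 1 with row sets aligned. With dim genes left out, which removes Hesx1 and Lhx1 from the genes tested, it was 2 of 4 between XX germ and supporting cells and 1 between XY germ and supporting cells at 11.5 dpc, and 4 listed genes passed between the karyotypes of germ cells at 12.5 dpc in place of 8.

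With 1 array left out the counts were 1 to 3 for XX germ cells from 11.5 to 13.5 dpc, 1 to 2 for the difference of the XX changes, 3 to 4 and 2 to 3 for germ against supporting cells in XX and XY, 0 in the other comparisons of germ cells and over time in supporting cells, and 0 to 1, 1 to 1 and 1 to 2 between supporting karyotypes at the 3 stages in order. Listed genes past the test numbered 3 to 10 at 12.5 dpc (3 without germ XX 12.5 dpc replicate 2 and 5 without germ XY 12.5 dpc replicate 2) and 23 to 39 at 13.5 dpc. Of the 31 listed genes called at 13.5 dpc 18 were called under every setting, and of the 8 at 12.5 dpc 2 were. Where a germ XX 12.5 dpc array was left out, the lone array was assumed to vary like the other groups. The cause of these shifts was not tested.

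Sign changes of uncalled differences were as follows, with the range over arrays left out in turn. Lhx1 in XX germ cells between 11.5 and 12.5 dpc read -0.19 with all 36 arrays, -0.01 with arrays centred, and -0.22 to 0.40 with an array left out, where one value was -0.04. Lhx1 between supporting karyotypes read 0.01 at 11.5 dpc with arrays centred or after quantile normalisation, 0.05 with row sets aligned, -0.12 to 0.01 with an array left out, and -0.02 to 0.24 so at 13.5 dpc. Hesx1 in XY supporting cells over time read 0.11 with arrays centred, 0.12 after quantile normalisation, 0.04 with row sets aligned and -0.16 to 0.07 with an array left out. With row sets aligned Hesx1 read -0.07 in XX germ cells from 11.5 to 13.5 dpc, and 0.02 and 0.06 between supporting karyotypes at 11.5 and 12.5 dpc. With an array left out, the latter read -0.11 to 0.02 and -0.16 to 0.12, Mgst2 read -0.76 to 0.08 and -0.62 to 0.27 there, and in germ cells at 11.5 dpc Bnc2 read -0.02 to 0.20 and Hesx1 -0.06 to 0.28.

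The count over all genes between XY and XX germ cells at 12.5 dpc was 358, and 775 with all 36 arrays, 768 with arrays centred, 756 after quantile normalisation, and 92 and 144 without germ XX or germ XY 12.5 dpc replicate 2. Row sets aligned raised it from 1837 to 3461 at 13.5 dpc, and from 663 to 1720, 2666 to 5551 and 2437 to 5125 between supporting karyotypes. Same-numbered arrays deviated from their group means with correlations of -0.52 to 0.20, so the numbers do not pair the samples. The replicate block ended or added no call for the 4 genes (Bnc2 in XX germ cells 1.45, adjusted p = 4.73e-06). Centring moved differences by at most 0.16.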
